A study of Mus musculus with 105 samples.

Results

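Lysosome genes are described here as 29 named genes of the lysosome among the 54532 gene identifiers of a mouse mRNA count table, followed across all 3 cell lines of the study. The members were taken by symbol, from a given list, and all 29 were found. They are 9 cathepsins (Ctsa, Ctsb, Ctsd, Ctsf, Ctsh, Ctsk, Ctsl, Ctss and Ctsz), the peptidase Tpp1, 9 enzymes that degrade sugar chains (Hexa, Gla, Glb1, Gaa, Gusb, Idua, Ids, Naglu and Neu1), 4 genes of lipid handling (Npc1, Npc2, Lipa and Psap), 5 membrane proteins (Lamp1, Lamp2, Cd63, Scarb2 and Mcoln1) and the transcription factor Tfeb. Of these, 28 had enough counts to be tested, and Ctss did not.

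The study, on the making and turnover of miRNAs, also sequenced mRNA from 2 libraries of each wild-type line. ESC were embryonic stem cells of the line v6.5, strain C57BL/6, passaged every 2 days in DMEM/F12 with B27, N2, LIF and the inhibitors PD0325901 and CHIR99021. CIMEF were C57BL/6J embryo fibroblasts held contact-inhibited for 5 days, and DMEF were C57BL/6J embryo fibroblasts kept dividing by passage. Both fibroblast lines were grown in DMEM with 10% FBS. All lines were at passages 5 to 15. Line, medium and growth state cannot be told apart between ESC and the fibroblasts. The labels do not say that the 2 libraries of a line came from separate cultures, so p-values measure the spread between libraries. Each gene's spread was estimated over all 6 libraries, so a p-value for 2 lines also draws on the libraries of the third.

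The lysosome is the acidic compartment in which cells degrade proteins, sugar chains and lipids that arrive by endocytosis or autophagy. Soluble enzymes reach it by way of mannose 6-phosphate tags, heavily glycosylated membrane proteins line it, and a proton pump keeps it acidic. TFEB and the related factors TFE3 and MITF bind E-box elements in promoters of lysosomal genes. Their entry into the nucleus is controlled by phosphorylation, largely through mTORC1 at the lysosomal surface, so that mRNA level is only part of how they are regulated.

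The libraries held 23030907 to 34093791 gene counts. The 2 libraries of every line differed beyond sampling noise, least in ESC and most in CIMEF: the SD of the log2 difference between the libraries, over 28 members, was 0.148 in ESC, 0.781 in CIMEF and 0.342 in DMEF. Over 18094 genes it was 0.207 in ESC, 0.616 in CIMEF and 0.377 in DMEF. For members with counts in both libraries, the median fold between them was 1.04 in ESC, 1.18 in CIMEF and 1.11 in DMEF. In CIMEF the low-count genes Ctsk (12.4-fold) and Ctsh (5.13-fold) differed most. Among identity markers, 8 pluripotency genes summed to 3121 to 3155 counts per 1000000 (CPM) in ESC, 20.4 to 29.7 in CIMEF and 24.4 to 32.3 in DMEF. For 8 fibroblast genes the sums were 1986 to 2011 CPM in ESC, 29400 to 32500 in CIMEF and 25940 to 29870 in DMEF. Most of the ESC sum was Fn1, with 1737 and 1717 CPM. Of these 8 fibroblast genes, 7 fell in ESC against CIMEF and 8 against DMEF, and the CIMEF libraries differed widely in some of them. Thy1 had 3.07 and 3.69 CPM in ESC, 36.2 and 1.18 CPM in CIMEF and 107 and 119 CPM in DMEF, so that CIMEF library 2 lay below ESC. Pdgfra had 2.33 and 2.79 CPM in ESC, 149 and 506 CPM in CIMEF and 55.6 and 59.3 CPM in DMEF. Of 6 proliferation genes, 4 fell and 1 rose in CIMEF against DMEF: the mitotic kinase gene Plk1 had 31.9 and 30.8 CPM in CIMEF and 104 and 149.7 CPM in DMEF, while Mki67 had 1108 and 1031 CPM in CIMEF and 625 and 674 CPM in DMEF. CPM here means counts divided by the scaled library total. It is not corrected for transcript length, so levels are compared between lines and not between genes.

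Most lysosome genes had less mRNA in ESC than in either fibroblast line, and 11 had more in CIMEF than in DMEF. Their counts together made up 0.296% and 0.305% of all counts in the ESC libraries, against 0.682% and 0.757% in CIMEF and 0.471% and 0.521% in DMEF. No library of 1 line overlapped another line in this share. In bulk RNA, fewer cells that express a gene and less RNA per cell cannot be told apart. Of the 28 members tested, 18 (64.3%) had their highest mean in CIMEF, 6 (21.4%) in DMEF and 4 (14.3%) in ESC. Over all tested genes these shares were 34.6% in CIMEF, 21.3% in DMEF and 44.1% in ESC.

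In ESC against CIMEF, 23 of 28 members fell, where 37.7% of all tested genes fell, and 3 rose, where 38.2% of all tested genes rose. The median log2 difference of the members was -1.57, against 0.06 for all genes. In ESC against DMEF, 19 of 28 fell against 30.5% of all genes, and 4 rose against 30.3% of all genes, with a member median of -1.05 against 0.06. In CIMEF against DMEF, 11 of 28 rose against 19.5% of all genes, and 2 fell against 21.1% of all genes, with a member median of 0.38 against 0. Each pair of these comparisons shares a line and its libraries, so they are not independent of each other. Calls are from edgeR's quasi-likelihood test with Benjamini-Hochberg adjusted p under 0.05 over 18094 genes. Errors of log2 values are standard errors of that fit. With all 6 libraries, 7340 genes were called in CIMEF against DMEF and 11001 in ESC against DMEF. With only the libraries of the lines compared, these were 5364 of 15786 and 12049 of 17074 genes. In those fits 9 members rose in CIMEF against DMEF, and 21 fell in ESC against DMEF. The number of members that rose in CIMEF changed with the library left out, and so did the number over all genes.

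**Figure D1:**
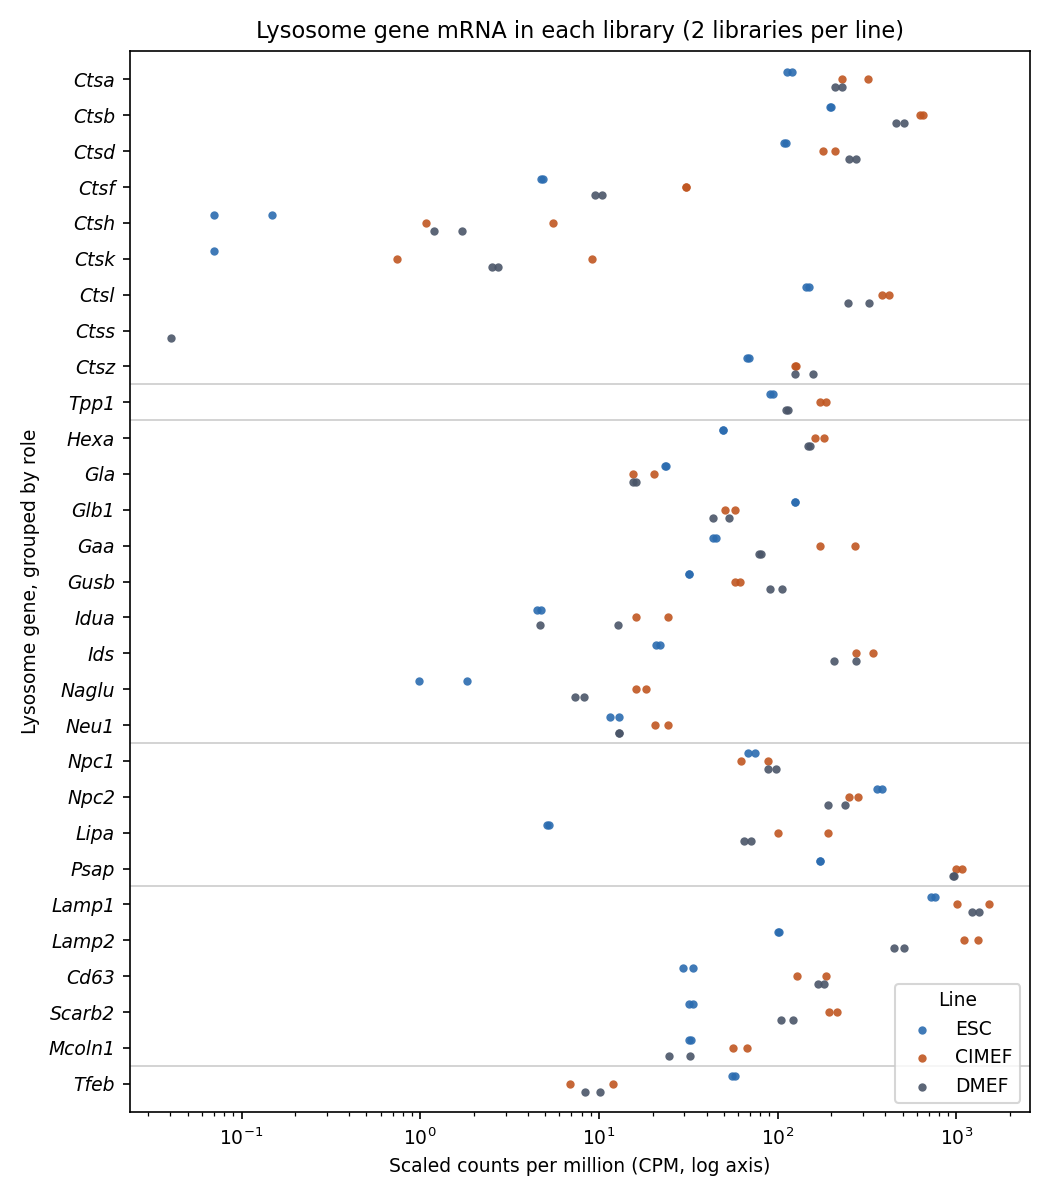
Scaled CPM on a log axis for each lysosome gene, 1 point per library, with ESC in blue, CIMEF in orange and DMEF in grey; libraries with no count have no point. ESC points lie left of both fibroblast lines for most genes, and right of them for Tfeb, Glb1, Npc2 and Gla.

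**Figure D2:**
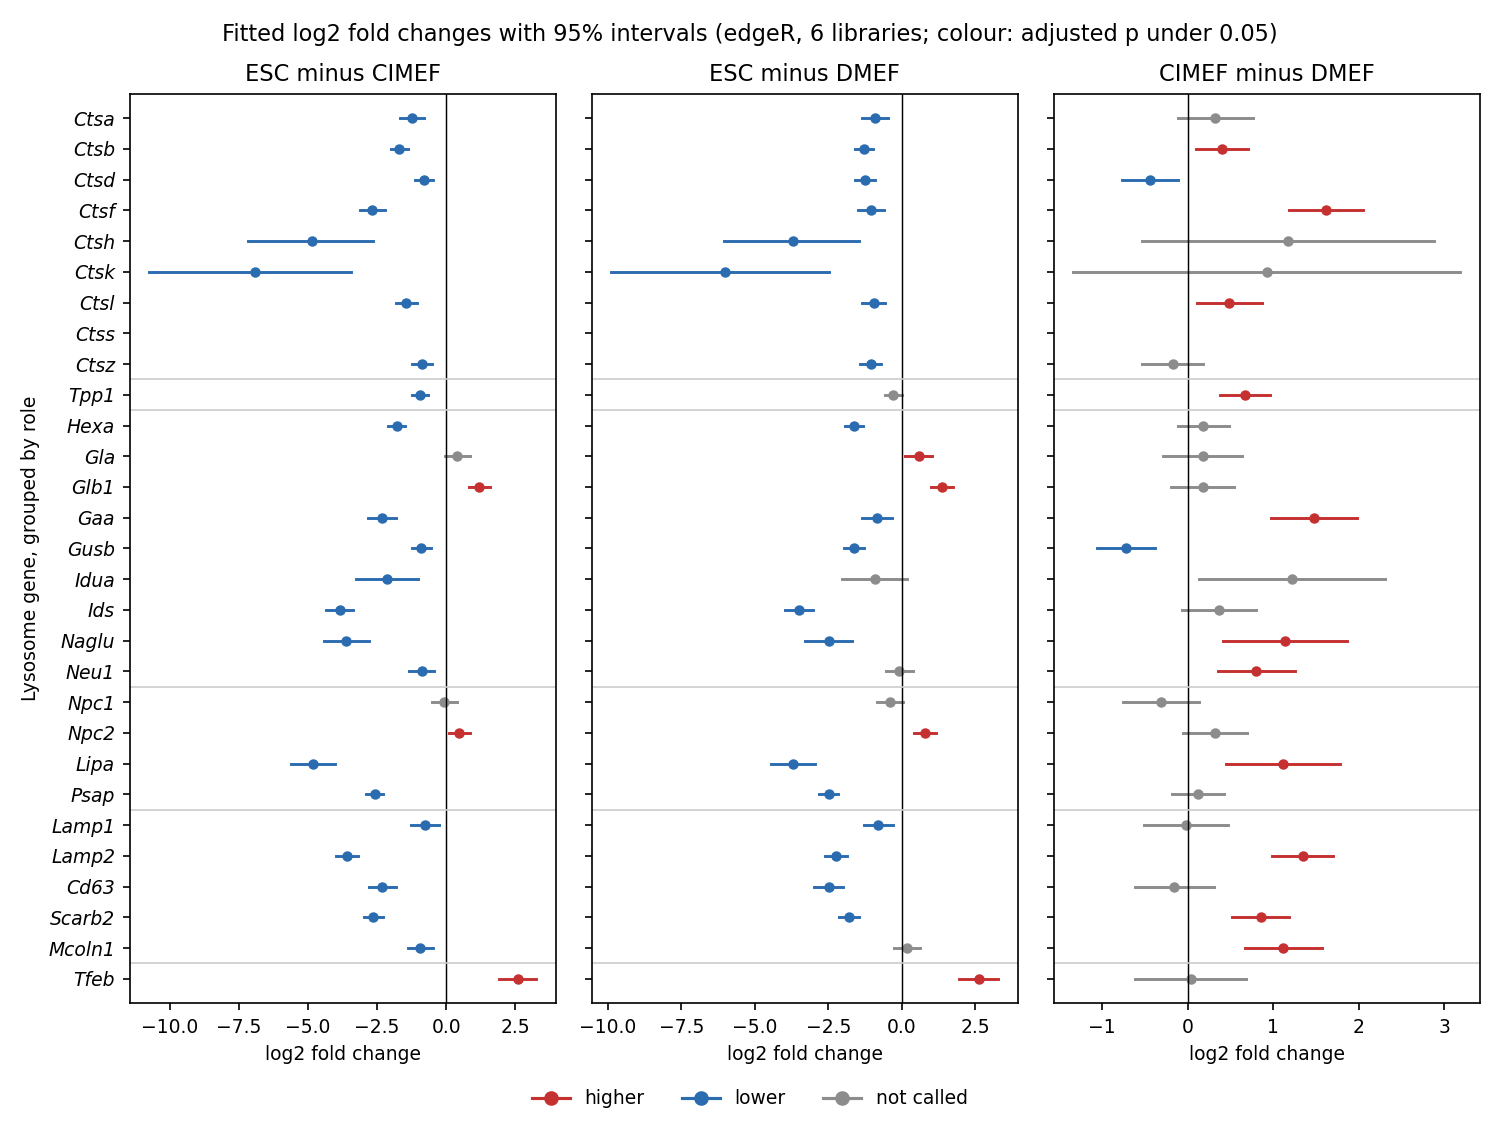
Fitted log2 fold changes (points) with 95% intervals (bars) for 28 lysosome genes in the 3 comparisons, red where higher, blue where lower and grey where not called. The intervals of Ctsh and Ctsk are the widest, and the fitted values of Ctsk against ESC rest on 2 ESC counts.

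Tfeb, the transcription factor of the list, rose in ESC, where most members fell. It had 55.8 and 58.0 CPM in ESC, against 6.92 and 12.0 CPM in CIMEF and 8.37 and 10.1 CPM in DMEF. All ESC values lay far above the fibroblast values, while CIMEF and DMEF overlapped. Tfeb rose in ESC by log2 2.59 ± 0.28 against CIMEF (adjusted p = 0.000173) and by 2.62 ± 0.28 against DMEF (adjusted p = 0.00021). Between CIMEF and DMEF the difference was 0.03, with a 95% interval of -0.61 to 0.68. The gene lies on chromosome 17 at 47737037 to 47792416 (GRCm38.p6).

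The factors of the same family were looked up beside Tfeb. Tfe3 had 107 and 113.5 CPM in ESC, against 54.7 and 54.0 CPM in CIMEF and 68.5 and 75.9 CPM in DMEF. It rose in ESC by 1.02 ± 0.13 against CIMEF and by 0.61 ± 0.13 against DMEF, and it fell by 0.41 in CIMEF against DMEF (adjusted p = 0.0433). Mitf had 82.0 and 82.7 CPM in ESC, 14.9 and 10.8 CPM in CIMEF and 3.84 and 3.48 CPM in DMEF. Mitf thus separated all 3 lines, with log2 differences of 2.68 ± 0.20 in ESC against CIMEF, 4.49 ± 0.22 in ESC against DMEF and 1.82 ± 0.21 in CIMEF against DMEF. Tfec, the fourth factor, had no count in any library.

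**Figure D3:**
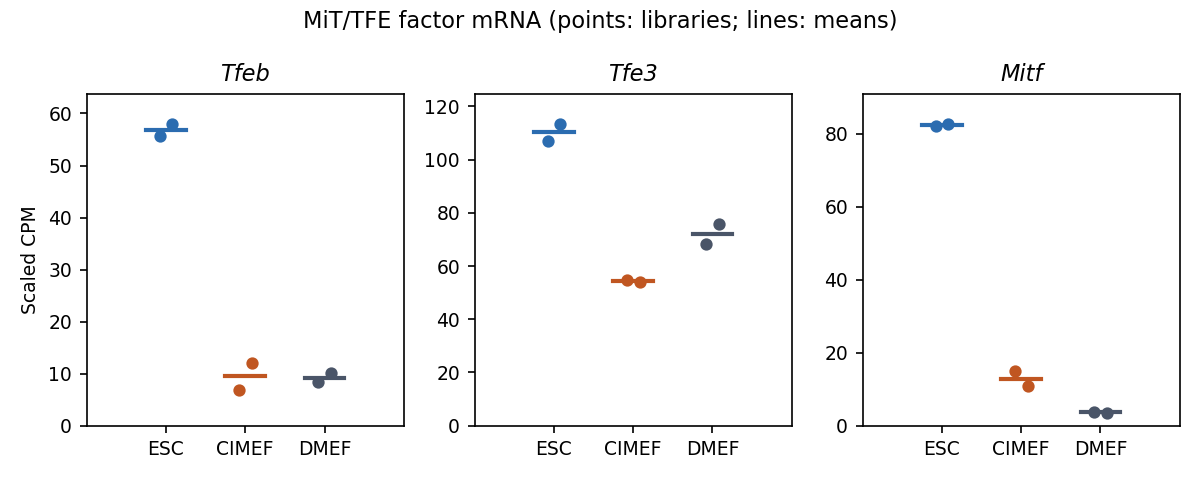
Scaled CPM of Tfeb, Tfe3 and Mitf, with points for the 2 libraries of each line and lines for their mean; each vertical axis starts at 0 and has its own scale. ESC is above both fibroblast lines for all 3 factors, and CIMEF is above DMEF for Mitf.

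Promoters were read because this family of factors binds E-boxes. Whether these factors act on the members in these lines was not tested. RefSeq promoter windows (250 bases before to 50 after an annotated start, GRCm38.p6) were found for 26 members, 30 windows in all, and none for Ctsb, Ctsh and Npc1. The E-box core CACGTG, which reads the same on both strands, was in 10 of 30 member windows (33.3%), against 2349 of all 32851 windows (7.15%). The extended form GTCACGTG, searched on both strands, was in 7 member windows (23.3%) against 2.25% of all windows. The palindrome TCACGTGA was in 4 member windows (13.3%) against 0.974% of all. Both longer motifs contain the core, so these counts overlap. A match of letters is not a measured binding site.

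The windows below are those of the 4 genes with the palindrome, Mcoln1, Ctsd, Ctsa and Gla, followed by Ctsf and Gaa, the 2 genes with only the core that differed most between CIMEF and DMEF. Each is printed 5′ to 3′ on the strand of its gene. Capitals mark the E-box motifs, in their longest form where they overlap.
Mcoln1, chr8:3500269-3500568, plus strand: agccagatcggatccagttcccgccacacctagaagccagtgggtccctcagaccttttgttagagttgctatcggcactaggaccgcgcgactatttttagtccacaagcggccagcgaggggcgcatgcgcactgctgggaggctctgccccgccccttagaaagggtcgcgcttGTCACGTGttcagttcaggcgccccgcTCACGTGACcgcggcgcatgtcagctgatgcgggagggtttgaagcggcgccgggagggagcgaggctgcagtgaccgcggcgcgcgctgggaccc
Ctsd, chr7:142387778-142388077, minus strand: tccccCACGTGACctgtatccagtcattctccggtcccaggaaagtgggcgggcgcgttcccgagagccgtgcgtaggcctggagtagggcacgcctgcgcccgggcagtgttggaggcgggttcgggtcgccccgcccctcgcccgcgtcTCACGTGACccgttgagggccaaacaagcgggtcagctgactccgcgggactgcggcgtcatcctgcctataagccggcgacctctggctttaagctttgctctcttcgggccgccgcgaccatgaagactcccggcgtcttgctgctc
Ctsa, chr2:164833523-164833822, plus strand: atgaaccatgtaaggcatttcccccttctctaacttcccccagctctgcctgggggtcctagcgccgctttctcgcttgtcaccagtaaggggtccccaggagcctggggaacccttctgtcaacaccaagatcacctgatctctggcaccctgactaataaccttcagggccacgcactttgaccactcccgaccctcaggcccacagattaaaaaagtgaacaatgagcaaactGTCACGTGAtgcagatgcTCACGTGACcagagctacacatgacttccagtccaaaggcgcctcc
Gla, chrX:134600956-134601255, minus strand: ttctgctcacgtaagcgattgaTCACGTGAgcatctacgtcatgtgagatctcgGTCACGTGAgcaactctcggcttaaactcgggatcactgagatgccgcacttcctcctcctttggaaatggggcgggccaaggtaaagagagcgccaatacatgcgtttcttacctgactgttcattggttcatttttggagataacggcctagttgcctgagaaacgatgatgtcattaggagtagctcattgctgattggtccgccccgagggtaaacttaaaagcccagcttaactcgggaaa
Ctsf, chr19:4854915-4855214, plus strand: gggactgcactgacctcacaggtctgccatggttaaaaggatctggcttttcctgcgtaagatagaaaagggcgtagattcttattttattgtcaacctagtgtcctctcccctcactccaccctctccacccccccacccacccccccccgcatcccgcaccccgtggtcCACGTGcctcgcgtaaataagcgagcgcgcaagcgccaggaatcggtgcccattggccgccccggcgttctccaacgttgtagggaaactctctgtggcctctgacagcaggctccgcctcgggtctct
Gaa, chr11:119267713-119268012, plus strand: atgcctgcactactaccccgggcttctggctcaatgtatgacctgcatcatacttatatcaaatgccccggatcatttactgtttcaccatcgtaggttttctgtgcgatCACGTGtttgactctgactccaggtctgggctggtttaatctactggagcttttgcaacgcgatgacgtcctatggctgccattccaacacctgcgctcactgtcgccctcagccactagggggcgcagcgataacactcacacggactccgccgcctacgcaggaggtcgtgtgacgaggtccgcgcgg

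Positions are counted from the RefSeq transcript start of each window. That start lies 901 bases inside the annotated gene for Ctsa, whose other window holds no core, 252 bases inside it for Ctsl and 4 for Naglu, and at its 5′ end for the other 7 genes with a core. From these starts a core lay within 100 bases in Ctsa, Ctsd, Mcoln1, Lamp1, Glb1, Naglu and Ctsf, and the core of Gaa lay at -140. Lamp1 held 4 cores, at -61, -45, -28 and -15, and Ctsa held 1 on either side of its start, at -12 and 6. In Ctsl and Gla the cores lay near the far end of the window, at -236 in Ctsl and at -227 and -194 in Gla. Ctsd also held a core there, at -245, beside the one at -98. Members with and without a core both held rises and falls: in CIMEF against DMEF, 5 of 10 members with a core rose and 1 fell, and among 16 with a window and no core, 5 rose, 1 fell, 9 were not called and Ctss was not tested. In ESC against CIMEF, 8 of 10 with a core fell, and 13 of those 16 without one, which include the untested Ctss. Of all tested genes, 37.7% fell in ESC against CIMEF, and 19.5% rose and 21.1% fell in CIMEF against DMEF. Median log2 differences with and without a core were -1.09 and -2.13 in ESC against CIMEF. They were -0.88 and -1.62 in ESC against DMEF, and 0.41 and 0.36 in CIMEF against DMEF. The difference between members with and without a core was not tested.

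**Figure D4:**
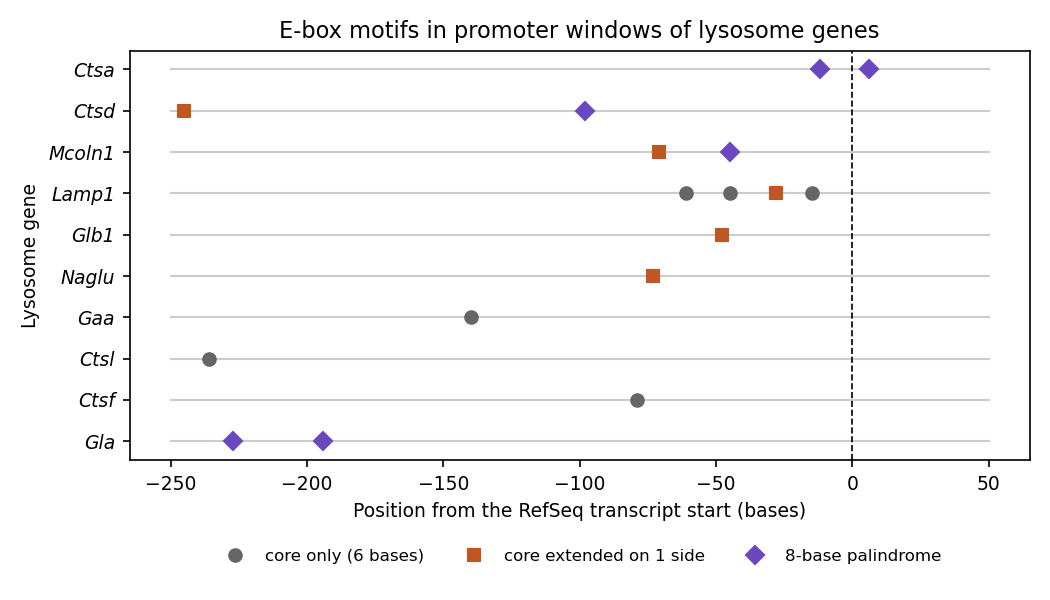
Position of each E-box core relative to the RefSeq transcript start of the window (dashed line at 0, in bases) in the promoter windows of 10 lysosome genes, with the motif form shown by marker shape. Lamp1 has 4 cores upstream of its start, and the cores of Ctsl and Gla lie farthest from it along with 1 of Ctsd.

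All 8 cathepsins tested fell in ESC against CIMEF and against DMEF. Cathepsins are the main proteases of the lysosome. The levels of the family summed to 646 and 643 CPM in ESC, against 1641 and 1705 CPM in CIMEF and 1306 and 1507 CPM in DMEF, with no overlap between lines. Ctsb, a cysteine protease with endo- and exopeptidase activity, had 196 and 199 CPM in ESC, 650 and 630 CPM in CIMEF and 459 and 509 CPM in DMEF. It fell in ESC, with log2 differences of -1.70 against CIMEF (SE 0.13, adjusted p = 3.81e-05) and -1.29 against DMEF (SE 0.13, adjusted p = 0.000164), and was 0.40 ± 0.13 higher in CIMEF than in DMEF (adjusted p = 0.0434). Ctsl, a cysteine endopeptidase, had 144 and 150 CPM in ESC, 417 and 384 CPM in CIMEF and 249 and 323 CPM in DMEF. The 3 lines kept the same order for Ctsl as for Ctsb, with log2 differences of -1.44 ± 0.16 in ESC against CIMEF (adjusted p = 0.000214), -0.96 ± 0.16 in ESC against DMEF (adjusted p = 0.0019) and 0.49 ± 0.16 in CIMEF against DMEF (adjusted p = 0.0475). The CIMEF calls of both genes lie close to the threshold: leaving out 1 of the other libraries ended the call of Ctsb without ESC library 1, ESC library 2 or DMEF library 1 (adjusted p = 0.075 to 0.142), and that of Ctsl without any library but CIMEF library 2 and DMEF library 2 (adjusted p = 0.0586 to 0.114). With a replicate block the adjusted p was 0.0701 for Ctsb and 0.0575 for Ctsl, and with only the CIMEF and DMEF libraries it was 0.146 for Ctsb and 0.114 for Ctsl. Ctsb also lost its call without a filter on low counts (0.102), and Ctsl with a stricter one (0.0528).

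Ctsd, the aspartic protease of the lysosome, was lower in CIMEF than in DMEF. It had 112 and 109 CPM in ESC, 179 and 209 CPM in CIMEF and 252 and 274 CPM in DMEF. ESC lay below CIMEF and CIMEF below DMEF in every library. The fall in CIMEF against DMEF was -0.44 ± 0.14 (adjusted p = 0.0405), and it lost its call under other scalings (adjusted p = 0.0801 with DESeq2's size factors and 0.0701 with the upper quartile), with DESeq2 (0.0958), with only the CIMEF and DMEF libraries (0.13), with a replicate block (0.0557) and without any 1 library other than CIMEF library 2 (0.081 to 0.183). In ESC, Ctsd fell by 0.81 against CIMEF and fell by 1.25 against DMEF.

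Ctsf, a cysteine protease, rose most of all members called in CIMEF against DMEF. It had 4.76 and 4.88 CPM in ESC, against 30.8 and 30.5 CPM in CIMEF and 10.5 and 9.53 CPM in DMEF. The 3 lines stood apart with little spread within each. The log2 difference was 1.62 ± 0.19 in CIMEF against DMEF (3.07-fold, adjusted p = 0.00148), -2.67 ± 0.19 in ESC against CIMEF and -1.05 ± 0.19 in ESC against DMEF. Its promoter window, printed above, holds 1 core at -79.

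Ctsa, the carboxypeptidase that also protects the neuraminidase and beta-galactosidase enzymes, and Ctsz, another carboxypeptidase, did not differ beyond the test between the fibroblast lines. Ctsa had 120 and 112 CPM in ESC, 228 and 321 CPM in CIMEF and 208 and 229.8 CPM in DMEF. It fell in ESC, with log2 differences of -1.24 against CIMEF and -0.92 against DMEF, and the call against DMEF was lost without ESC library 2 (adjusted p = 0.054). Ctsz had 69.4 and 67.4 CPM in ESC, 126 and 125 CPM in CIMEF and 125 and 158 CPM in DMEF, with falls in ESC (-0.87 against CIMEF and -1.05 against DMEF). For CIMEF against DMEF the 95% intervals ran from -0.11 to 0.76 for Ctsa and from -0.53 to 0.18 for Ctsz, and Ctsa passed the test without CIMEF library 1 (0.62, adjusted p = 0.0114). In the annotation Ctsa overlaps Neurl2 and Pltp, Ctsb overlaps Fdft1 and Ctsz overlaps Nelfcd. The strand setting of the counting is not given in the sources used here, so shared reads of overlapping genes may not be separable.

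Ctsk was near the floor in ESC, and Ctss in every library. Ctsk, the collagen-degrading cathepsin of osteoclasts, had 2 and 0 counts in ESC, 246 and 17 counts in CIMEF and 68 and 78 counts in DMEF, or 9.15 and 0.74 CPM in CIMEF and 2.72 and 2.51 CPM in DMEF. The CIMEF libraries lay on either side of DMEF and differed 12.4-fold from each other. With the 2 ESC counts summed over libraries, the ESC level was 0.686% of the CIMEF level (95% interval 0.0827% to 2.5%, counting error only) and 1.39% of the DMEF level (0.167% to 5.11%). The CIMEF counts come mostly from CIMEF library 1: without it the ESC level was 4.89% of the CIMEF level (0.548% to 20.6%), and without CIMEF library 2 it was 0.396% (0.0477% to 1.45%). Without ESC library 1 the ESC count was 0, and without ESC library 2 the ESC level was 1.34% of CIMEF and 2.7% of DMEF. The difference between CIMEF and DMEF was 0.92 (adjusted p = 0.463), became -1.75 (adjusted p = 0.0257) without CIMEF library 1 and 1.80 (adjusted p = 0.00339) without CIMEF library 2. So 1 library decides its sign. In ESC against DMEF the log2 difference was -6.007 with all libraries. Its call was lost without DMEF library 1 (-5.914) or DMEF library 2 (-6.016). With only the ESC and DMEF libraries the call was kept.

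Ctsh, an aminopeptidase of the family, had 0.0705 and 0.149 CPM in ESC, 1.08 and 5.53 CPM in CIMEF and 1.20 and 1.71 CPM in DMEF. It was lowest in ESC, and the CIMEF libraries again lay on either side of DMEF, but in the opposite sense to Ctsk. Ctsh fell by 4.86 in ESC against CIMEF (SE 0.96, adjusted p = 0.00285), a value that ran from -5.69 to -3.27 when CIMEF library 1 or CIMEF library 2 was left out. Against DMEF it fell by 3.69 (SE 0.97, adjusted p = 0.0131). That call was lost without ESC library 1 (-3.21), DMEF library 1 (-3.877) or DMEF library 2 (-3.362). With only the ESC and DMEF libraries the call was kept. In CIMEF against DMEF the difference was 1.17 (adjusted p = 0.229). It passed the test without CIMEF library 1 (1.98, adjusted p = 0.00374) and without a filter on low counts (0.0426), and was -0.44 without CIMEF library 2. Ctss, a cathepsin of antigen-presenting cells, had 1 count in DMEF library 1 and 0 in the other 5 libraries. A count of 0 allows up to 3 counts in a library. Ctsk (chromosome 3, 95499210 to 95509387) and Ctss (95526786 to 95556405) are neighbours.

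Markers of the cells these cathepsins are known from were low. The 11 macrophage markers summed to 6.13 to 7.89 CPM in ESC, 3.35 to 3.72 in CIMEF and 3.76 to 4.48 in DMEF, with Adgre1, Tyrobp and C1qa at 0 in every library. The 6 osteoclast markers summed to 8.71 to 10.2 CPM in ESC, where all 6 had counts, 0.261 to 1.93 in CIMEF and 0.480 to 0.483 in DMEF, and Ocstamp, Dcstamp and Calcr were at 0 in CIMEF and DMEF.

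Tpp1, a tripeptidyl peptidase outside the cathepsin family, had 91.1 and 93.7 CPM in ESC, 173 and 185 CPM in CIMEF and 115 and 111 CPM in DMEF. CIMEF stood above both of the others. The log2 difference was -0.96 ± 0.12 in ESC against CIMEF (adjusted p = 0.000403) and 0.67 ± 0.12 in CIMEF against DMEF (adjusted p = 0.00666). In ESC against DMEF it was -0.29 (adjusted p = 0.0784), and it passed the test when only the libraries of both lines were fitted (adjusted p = 0.0261) or without CIMEF library 1 (0.0413) or CIMEF library 2 (0.0433).

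Of the 9 enzymes that degrade sugar chains, 7 fell and 1 rose in ESC against CIMEF, and 5 fell and 2 rose in ESC against DMEF. Their levels summed to 312 and 315 CPM in ESC, 898 and 889 CPM in CIMEF and 688 and 637 CPM in DMEF. Ids, the sulfatase that starts the breakdown of heparan and dermatan sulfate, had 20.8 and 22.1 CPM in ESC, 275 and 343 CPM in CIMEF and 274 and 207 CPM in DMEF. ESC was far below both fibroblast lines, with log2 differences of -3.85 ± 0.21 against CIMEF (adjusted p = 8.06e-06) and -3.49 ± 0.20 against DMEF (adjusted p = 1.28e-05). Between CIMEF and DMEF the difference was 0.36 (adjusted p = 0.153), which passed without CIMEF library 1 (0.58, adjusted p = 0.0373). Naglu, which acts further along heparan sulfate, had 0.986 and 1.82 CPM in ESC, 18.3 and 16.1 CPM in CIMEF and 8.29 and 7.34 CPM in DMEF. The lines were separate for Naglu, with differences of -3.61 ± 0.35 in ESC against CIMEF, -2.47 ± 0.34 in ESC against DMEF and 1.14 ± 0.31 in CIMEF against DMEF (adjusted p = 0.0246). The last call was lost without DMEF library 1 (adjusted p = 0.0795) or DMEF library 2 (0.125).

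Idua, which removes iduronic acid from the same chains, had 4.47 and 4.73 CPM in ESC, 24.4 and 16.0 CPM in CIMEF and 12.8 and 4.67 CPM in DMEF. DMEF library 2 lay within the ESC values and DMEF library 1 nearer to CIMEF. Idua fell by 2.13 in ESC against CIMEF (SE 0.48, adjusted p = 0.00522). In CIMEF against DMEF the difference was 1.22 ± 0.46 (adjusted p = 0.0729), and it passed the test with a replicate block (adjusted p = 0.0309), with DESeq2 (0.0301), without a filter on low counts (0.000596), and without CIMEF library 2 (0.0314) or DMEF library 1 (0.0163). In ESC against DMEF it was -0.92 (adjusted p = 0.128) and passed without DMEF library 2 (-1.43, adjusted p = 0.0155) or a filter on low counts (0.00386), while it was 0.02 without DMEF library 1. Idua overlaps Dgkq and Slc26a1 in the annotation.

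Gaa, the enzyme that degrades glycogen in lysosomes, was highest in CIMEF. It had 43.6 and 45.2 CPM in ESC, 270.1 and 174 CPM in CIMEF and 78.4 and 81.1 CPM in DMEF. All libraries of the 3 lines were separate, although the CIMEF libraries differed 1.56-fold. Gaa rose by 1.48 ± 0.21 in CIMEF against DMEF (2.78-fold, adjusted p = 0.00295) and fell by 2.32 in ESC against CIMEF (adjusted p = 8.99e-05). The fall in ESC against DMEF was -0.85 (adjusted p = 0.011). Its call was lost whichever of the ESC or DMEF libraries was left out, at log2 differences of -0.861 to -0.775. With only the ESC and DMEF libraries the call was kept.

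Gusb, beta-glucuronidase, was highest in DMEF, with 32.1 and 31.9 CPM in ESC, 57.7 and 61.5 CPM in CIMEF and 90.2 and 106 CPM in DMEF. Its fall in CIMEF against DMEF of -0.72 ± 0.14 (adjusted p = 0.00867) was the larger of the 2 falls among members, and it fell in ESC, with log2 differences of -0.90 against CIMEF and -1.62 against DMEF. Neu1, a neuraminidase, had 11.5 and 12.9 CPM in ESC, 20.7 and 24.3 CPM in CIMEF and 12.9 and 12.9 CPM in DMEF. Neu1 was thus higher in CIMEF than in either of the others, by 0.80 ± 0.19 over DMEF (adjusted p = 0.0162), with -0.88 ± 0.19 in ESC against CIMEF (adjusted p = 0.00456). The first call was lost without ESC library 1, ESC library 2, DMEF library 1 or DMEF library 2 (adjusted p = 0.0507 to 0.0641) and the second without ESC library 1 (0.0712). Hexa, the alpha subunit of the enzyme that cleaves GM2 ganglioside, had 49.6 and 49.1 CPM in ESC, 161 and 181 CPM in CIMEF and 153 and 149 CPM in DMEF, with falls in ESC (-1.79 against CIMEF and -1.61 against DMEF) and an interval of -0.12 to 0.49 for CIMEF against DMEF. It overlaps Tmem202.

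Glb1 and Gla were higher in ESC than in DMEF. Glb1, beta-galactosidase, had 125 and 124 CPM in ESC, 50.9 and 58.1 CPM in CIMEF and 43.2 and 53.4 CPM in DMEF. ESC was above both fibroblast lines, which overlapped, and Glb1 rose in ESC by 1.20 ± 0.16 against CIMEF (adjusted p = 0.000433) and 1.37 ± 0.16 against DMEF (adjusted p = 3e-04). The gene Tmppe overlaps Glb1 and had 14.3 and 13.4 CPM in ESC, 5.02 and 6.79 CPM in CIMEF and 9.17 and 10.3 CPM in DMEF. Gla, alpha-galactosidase A, had 23.8 and 23.4 CPM in ESC, 20.2 and 15.5 CPM in CIMEF and 16.1 and 15.5 CPM in DMEF. Its rise of 0.58 ± 0.19 in ESC against DMEF (adjusted p = 0.0367) was lost whichever ESC or DMEF library was left out (adjusted p = 0.0662 to 0.162), and also without a filter on low counts (0.109). Against CIMEF it was 0.40 (adjusted p = 0.0956), which passed under upper-quartile scaling (0.0197) or without CIMEF library 1 (0.0323).

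The 4 genes of lipid handling divided by gene. Lipa, the acid lipase that frees cholesterol and fatty acids from lipoprotein lipids, had 5.14 and 5.29 CPM in ESC, 101 and 193 CPM in CIMEF and 71.1 and 64.7 CPM in DMEF. The 3 lines did not overlap, and the CIMEF libraries differed 1.91-fold. Lipa fell in ESC, with log2 differences of -4.81 against CIMEF (28.1-fold, SE 0.33, adjusted p = 2.28e-05) and -3.70 against DMEF (13-fold, SE 0.32, adjusted p = 7.73e-05). It rose by 1.11 ± 0.28 in CIMEF against DMEF (adjusted p = 0.0204), a call lost without DMEF library 1 (0.0973) or DMEF library 2 (0.142). Psap, the precursor of the saposins that help enzymes reach sphingolipids, had 172 and 172 CPM in ESC, 1082 and 999 CPM in CIMEF and 954 and 965 CPM in DMEF. It fell in ESC, with log2 differences of -2.60 against CIMEF and -2.48 against DMEF, and its difference between CIMEF and DMEF was 0.12, with an interval of -0.19 to 0.42.

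Npc2 and Npc1 hand cholesterol on from the lysosome, the first in the lumen and the second in the membrane. Npc2 had 382 and 359.8 CPM in ESC, 283 and 252 CPM in CIMEF and 190.2 and 238 CPM in DMEF. It was highest in ESC, by 0.47 ± 0.16 over CIMEF (adjusted p = 0.0281) and 0.79 ± 0.16 over DMEF (adjusted p = 0.00407). The call against CIMEF was lost without ESC library 1 (0.161), ESC library 2 (0.114) or CIMEF library 2 (0.0806). Npc1 had 74.7 and 68.3 CPM in ESC, 87.9 and 62.0 CPM in CIMEF and 98.0 and 88.7 CPM in DMEF, and passed no test. Its 95% intervals were -0.51 to 0.38 in ESC against CIMEF, -0.83 to 0.06 in ESC against DMEF and -0.76 to 0.13 in CIMEF against DMEF. Without CIMEF library 1 it passed the test in CIMEF against DMEF (-0.53, adjusted p = 0.0304) and in ESC against DMEF (-0.40, adjusted p = 0.0215). ESC against DMEF also passed without CIMEF library 2 (0.0221) and with only the ESC and DMEF libraries (0.0152). Npc1 overlaps Rmc1.

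All 5 membrane proteins fell in ESC against CIMEF, and 4 of 5 fell in ESC against DMEF. Lamp1 and Lamp2 are the main glycoproteins of the lysosomal membrane. Lamp2 had 101 and 102 CPM in ESC, 1110 and 1322 CPM in CIMEF and 512 and 447 CPM in DMEF. The 3 lines stood well apart: -3.59 ± 0.17 in ESC against CIMEF (12-fold, adjusted p = 5.2e-06), -2.25 ± 0.16 in ESC against DMEF (adjusted p = 2.93e-05) and 1.34 ± 0.15 in CIMEF against DMEF (adjusted p = 0.00147). Lamp1 had 757 and 726 CPM in ESC, 1003 and 1520 CPM in CIMEF and 1216 and 1345 CPM in DMEF. CIMEF and DMEF overlapped, and Lamp1 fell in ESC, with log2 differences of -0.77 against CIMEF (SE 0.21, adjusted p = 0.0126) and -0.79 against DMEF (SE 0.21, adjusted p = 0.0143). The first call was lost without ESC library 1 (-0.791) or ESC library 2 (-0.753). The second was lost without any 1 of the ESC and DMEF libraries, at log2 differences of -0.822 to -0.669. It was also lost with upper-quartile scaling (adjusted p = 0.0708). With only the libraries of the lines compared, both calls were kept. Lamp2 lies on the X chromosome, at 38399647 to 38456460.

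Cd63, a tetraspanin of late endosomes and lysosomes, had 29.5 and 33.6 CPM in ESC, 128 and 187 CPM in CIMEF and 169 and 183 CPM in DMEF. It fell in ESC (-2.32 against CIMEF and -2.48 against DMEF) and did not pass the test between the fibroblast lines, whose values overlapped, unless CIMEF library 2 was left out (-0.46, adjusted p = 0.0434). The pseudogene Cd63-ps had 38 to 407 counts, so some reads of Cd63 may have been assigned between them. Scarb2, the carrier of glucocerebrosidase to the lysosome, had 33.5 and 32.1 CPM in ESC, 215 and 193 CPM in CIMEF and 122 and 104 CPM in DMEF. It separated all lines, with -2.64 ± 0.15 in ESC against CIMEF, -1.78 ± 0.15 in ESC against DMEF and 0.86 ± 0.14 in CIMEF against DMEF (adjusted p = 0.00466).

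Mcoln1, a cation channel that releases calcium from the lysosome, had 31.9 and 32.7 CPM in ESC, 56.3 and 67.6 CPM in CIMEF and 32.5 and 24.6 CPM in DMEF. CIMEF stood above the others, and ESC and DMEF overlapped. Mcoln1 rose by 1.12 ± 0.19 in CIMEF against DMEF (2.17-fold, adjusted p = 0.00505) and fell by 0.94 in ESC against CIMEF (adjusted p = 0.00323), while the interval for ESC against DMEF was -0.27 to 0.62. Its promoter window holds the palindrome, with its core at -45, and the extended form, with its core at -71.

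Other genes of the pathway were counted from 6 lists, whose shares are read against all tested genes: 38.2% of these rose and 37.7% fell in ESC against CIMEF, 30.3% rose and 30.5% fell in ESC against DMEF, and 19.5% rose and 21.1% fell in CIMEF against DMEF. Of 30 other hydrolases and activators, 21 (70%) fell and 6 (20%) rose in ESC against CIMEF, 16 (53.3%) fell and 7 (23.3%) rose in ESC against DMEF, and 15 (50%) rose and 2 (6.67%) fell in CIMEF against DMEF. Their median log2 difference was -1.18 in ESC against CIMEF, -0.78 in ESC against DMEF and 0.56 in CIMEF against DMEF. Ctso, another cathepsin, had 0.0705 and 0.261 CPM in ESC, 26.1 and 14.1 CPM in CIMEF and 4.16 and 2.29 CPM in DMEF, with the largest falls of its list in ESC (-6.90 ± 0.67 against CIMEF and -4.26 ± 0.66 against DMEF) and the largest rise in CIMEF against DMEF (2.65 ± 0.49). Acp5, the tartrate-resistant acid phosphatase known from osteoclasts, was the gene of this list that rose most in ESC, with 8.35 and 7.07 CPM in ESC, 0.149 and 0.0435 CPM in CIMEF and 0.120 and 0.226 CPM in DMEF. Hyal2, a hyaluronidase, fell most in CIMEF against DMEF, with 19.9 and 13.1 CPM in CIMEF and 25.4 and 36.7 CPM in DMEF (-0.91 ± 0.26, adjusted p = 0.0298).

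Of 19 other lysosomal membrane proteins tested, of 20 listed, 12 (63.2%) fell and 4 (21.1%) rose in ESC against CIMEF, 8 (42.1%) fell and 6 (31.6%) rose in ESC against DMEF, and 6 (31.6%) rose and 2 (10.5%) fell in CIMEF against DMEF. The share of rises in ESC against DMEF was near that of all genes. The median was -0.88 in ESC against CIMEF, -0.40 in ESC against DMEF and 0.37 in CIMEF against DMEF. Laptm5, a lysosomal protein best known from blood cells, had 78.2 and 86.6 CPM in ESC, against 0.706 and 0.435 CPM in CIMEF and 0.440 and 0.870 CPM in DMEF. Slc17a5, the sialic acid exporter, fell most in ESC against CIMEF (-2.64 ± 0.27), and Sidt2 fell most in ESC against DMEF (-1.90 ± 0.19). Between the fibroblast lines Ctns, the cystine exporter, had 34.7 and 34.4 CPM in CIMEF and 15.0 and 14.4 CPM in DMEF (1.23 ± 0.17, adjusted p = 0.00236). Tmem192 was the gene of this list that fell most in CIMEF (-0.92 ± 0.21, adjusted p = 0.013).

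Of the 16 genes of the V-ATPase, the proton pump, 6 (37.5%) rose and 4 (25%) fell in ESC against CIMEF, 3 (18.8%) rose and 3 (18.8%) fell in ESC against DMEF, and 1 (6.25%) rose and 4 (25%) fell in CIMEF against DMEF. Apart from its rises in ESC against CIMEF and its falls in CIMEF against DMEF, which were near the shares of all genes, the list had smaller shares than all genes. Their median in ESC was -0.14 against CIMEF and -0.16 against DMEF, and with upper-quartile scaling 0.07 against CIMEF and 0.11 against DMEF, a scaling that shifts all genes alike. Relative to the median of all genes it was -0.21 against CIMEF with all 3 scalings, and -0.23 against DMEF with the scaling reported. The cytosolic subunit Atp6v1b2 had 357 and 350.4 CPM in ESC, 70.6 and 102 CPM in CIMEF and 105 and 115 CPM in DMEF, and rose in ESC by 2.04 ± 0.20 against CIMEF and 1.68 ± 0.19 against DMEF. The accessory subunit Atp6ap1 had 82.5 and 83.1 CPM in ESC, 247 and 309 CPM in CIMEF and 314 and 326 CPM in DMEF, and fell in ESC (-1.75 ± 0.15 against CIMEF and -1.95 ± 0.15 against DMEF). In CIMEF against DMEF, Atp6ap2 rose by 0.62 ± 0.16 (adjusted p = 0.0234) and Atp6v0e fell by 1.19 (adjusted p = 0.00279).

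The 9 genes of mannose 6-phosphate sorting had 4 rises (44.4%) and 1 fall (11.1%) in ESC against CIMEF, 3 rises (33.3%) and 1 fall (11.1%) in ESC against DMEF, and 2 rises (22.2%) and 2 falls (22.2%) in CIMEF against DMEF. The rises in both ESC comparisons and both shares in CIMEF against DMEF were near those of all genes. In ESC against DMEF the rises were 5 with upper-quartile scaling and 4 with DESeq2's size factors, with 1 fall under each. In ESC against CIMEF they were 5 with upper-quartile scaling, and in CIMEF against DMEF 3 with DESeq2's size factors. Of all 18094 genes, 6854 rose in ESC against DMEF and 7659 in ESC against CIMEF with upper-quartile scaling. With the scaling reported these were 5488 and 6914. Upper-quartile scaling shifts all genes alike, and relative to all genes the list's median stayed at 0.45 against DMEF and 0.135 against CIMEF. The single fall in ESC was Igf2r, the large mannose 6-phosphate receptor, with 95.9 and 98.3 CPM in ESC, 610.0 and 498 CPM in CIMEF and 423 and 299.6 CPM in DMEF (-2.51 ± 0.21 against CIMEF and -1.90 ± 0.20 against DMEF). Gga3, an adaptor for cargo receptors, rose most in ESC (2.05 ± 0.20 against CIMEF and 1.90 ± 0.20 against DMEF). In CIMEF against DMEF, Gnptg, a subunit of the enzyme that makes the tag, rose by 0.80 ± 0.25 (adjusted p = 0.0402) and Nagpa, which uncovers it, fell by 0.92 (adjusted p = 0.0197).

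Of 18 factors of the MiT/TFE family and of mTORC1 at the lysosome tested, of 19 listed, 9 (50%) rose and 4 (22.2%) fell in ESC against CIMEF, 8 (44.4%) rose and 3 (16.7%) fell in ESC against DMEF, and 6 (33.3%) rose and 3 (16.7%) fell in CIMEF against DMEF. Upper-quartile scaling shifts all genes alike. With it, 12 rose and 3 fell in ESC against CIMEF, and 10 rose and 2 fell in ESC against DMEF. Of all 18094 genes, 7659 and 6854 then rose, against 6914 and 5488 with the scaling reported. The list's median relative to all genes stayed at 0.42 and 0.29. In CIMEF against DMEF 6 rose and 1 fell with upper-quartile scaling, and 7 rose and 1 fell with DESeq2's size factors. Of all genes, 3786 and 3748 rose there, against 3528 with the scaling reported. Rragd, a Rag GTPase that brings mTORC1 to the lysosome, had 92.0 and 85.7 CPM in ESC, 3.68 and 1.92 CPM in CIMEF and 1.00 and 1.06 CPM in DMEF. Its rises in ESC, 4.98 ± 0.31 against CIMEF and 6.42 ± 0.34 against DMEF, were the largest of the list. Rragc, its relative, fell most in ESC against DMEF, with 66.9 and 65.6 CPM in ESC and 167.7 and 187 CPM in DMEF (-1.42 ± 0.16). Fnip1, a partner of folliculin, fell most against CIMEF (-1.77 ± 0.13). In CIMEF against DMEF the largest rise was that of Mitf, given above, and the largest fall that of Lamtor5 (-0.64 ± 0.21, adjusted p = 0.0454).

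Of 27 autophagy genes, 8 (29.6%) rose and 11 (40.7%) fell in ESC against CIMEF, 8 (29.6%) rose and 13 (48.1%) fell in ESC against DMEF, and 4 (14.8%) rose and 5 (18.5%) fell in CIMEF against DMEF. Apart from the falls in ESC against DMEF, these shares were within 10 percentage points of those of all genes. Ulk2, a kinase that starts autophagy, had 2.89 and 3.80 CPM in ESC, 101 and 92.5 CPM in CIMEF and 81.1 and 49.3 CPM in DMEF (-4.86 ± 0.30 against CIMEF and -4.29 ± 0.30 against DMEF). Atg9b had 11.1 and 10.4 CPM in ESC, 0.855 and 0.0435 CPM in CIMEF and 0.520 and 0.354 CPM in DMEF. Gpnmb, a glycoprotein of lysosomes and melanosomes, rose most in CIMEF against DMEF, with 31.2 and 44.1 CPM in CIMEF and 12.3 and 16.0 CPM in DMEF (1.41 ± 0.25, adjusted p = 0.0054), and Bnip3, a receptor of mitophagy, fell most (-0.91 ± 0.29, adjusted p = 0.041).

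**Figure D5:**
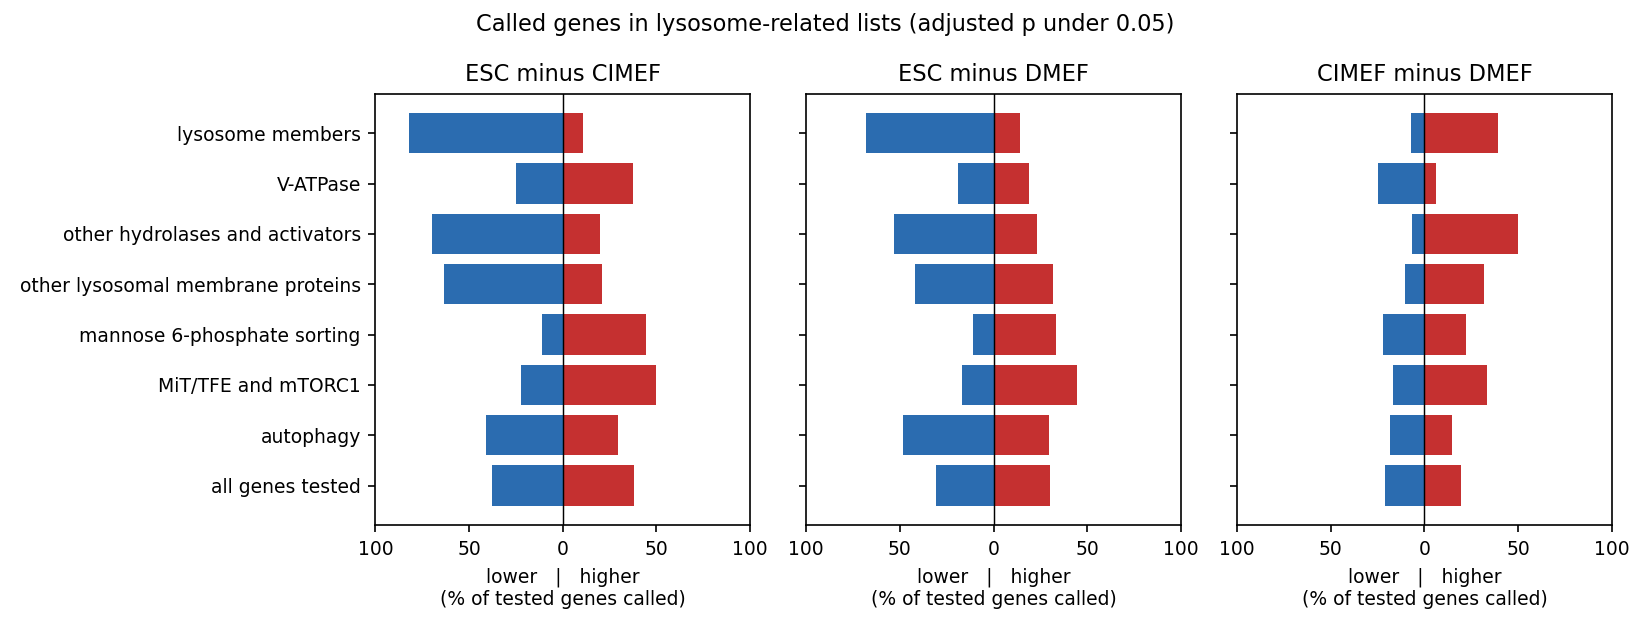
Share of tested genes called higher (red, right) or lower (blue, left) in each comparison, for the lysosome members, 6 related lists and all 18094 genes tested. Lysosome members and other hydrolases are mostly lower in ESC, and their share of rises in CIMEF against DMEF is above the 19.5% of all genes, while MiT/TFE genes have more rises than falls in ESC.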

How the data were processed

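Poly(A) mRNA of 2 libraries per line was sequenced with a directional kit as 40 nt single-end reads, per the labels' protocols. Values are the raw counts per gene that the authors deposited, without normalization. Per the submitters' processing notes, cutadapt, STAR 2.4 and HTSeq 0.9.1 were used with mm10/GRCm38. The strand setting is not given in the sources used here.

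Symbols were joined to the counts by their Ensembl gene identifiers, and coordinates came from RefSeq (GRCm38.p6). Every column carried a sample. The 6 libraries were fitted together with edgeR 4.0.16 in R 4.3.3 (filterByExpr for low counts, TMM factors and the quasi-likelihood test, with Benjamini-Hochberg adjusted p under 0.05 over 18094 genes), and the script was tested on simulated data. Standard errors were derived from the fold change and the F statistic. Alternatives were other scalings, filters, DESeq2 1.42.0, only the libraries of the lines compared, a replicate block and leaving out each library. Counting intervals are exact binomial and cover counting error only.

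Members and lists were chosen with earlier results of these data known. Per-library values are given for the 4 members called with the largest increase and the 4 with the largest decrease per comparison, for 10 named members and for the others too. In other lists the called genes with the largest increase and decrease are named. Tfe3, Mitf and Tfec were added as relatives of Tfeb after values were seen.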

Additional observations from a re-analysis of the deposited data

How the results depend on the processing

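Of 1092 recomputed log2 values of single members, 1012 kept their side of the threshold, 57 lost and 22 gained a call, and 1 reversed: Ctsk in CIMEF against DMEF, at -1.75 without CIMEF library 1 and 1.80 without CIMEF library 2. The cause was not tested. Of the 1012, 17 changed sign, over 8 results that were not called either way, and 995 kept it. The count of members that fell in CIMEF against DMEF, 2 in the values reported, was 1 with DESeq2's size factors, upper-quartile scaling, DESeq2, a fit on only the libraries of the lines compared, and the replicate block. Leaving out 1 library gave 1 to 3 members that fell and 7 to 13 that rose in CIMEF against DMEF, 21 to 23 and 2 to 4 in ESC against CIMEF, and 15 to 21 and 3 to 4 in ESC against DMEF. Same-numbered libraries of different lines showed little shared deviation over all tested genes: correlations were -0.002 (ESC and CIMEF), -0.019 (ESC and DMEF) and 0.05 (CIMEF and DMEF). These values cannot show whether same-numbered libraries were handled together. With the replicate block the members' counts were 23 lower and 3 higher in ESC against CIMEF, 19 and 4 in ESC against DMEF, and 1 and 10 in CIMEF against DMEF.

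Upper-quartile scaling raised the median of all genes by 0.22 in ESC against CIMEF and 0.27 in ESC against DMEF. Relative to all genes, the members' medians were then -1.63 and -1.11, as with the scaling reported. Over all genes, 3605 were called in CIMEF against DMEF without DMEF library 2, against 7340 with all libraries. A comparison per transcript length was not run, since no transcript lengths were at hand. Depth limits Ctss, Ctsk and Ctsh, which had few or no counts in ESC, and 2 libraries a line limit every error given.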
